A study of Mus musculus with 12 samples.

Results

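Stimulation through the T cell receptor changes the chromatin of a T cell within hours, and the regions described here are the open chromatin regions (OCR) that gained accessibility on stimulation in regulatory T cells (Treg) both with and without Ikaros. Accessibility was measured by ATAC-seq, in which the Tn5 transposase cuts exposed DNA, and each value is a count of reads in one region of one library. Counts were divided by the library total to give CPM, the reads in a region per 1000000 reads in all regions, and averaged over the libraries of a group. A region was taken when its highest group mean was at least 10 CPM, when its stimulated mean was at least 1.5 times its ex vivo mean in WT and again in Ikzf1-cko Treg, and when in each genotype the lowest stimulated library lay above the highest ex vivo library. Of 118680 regions, 26268 reached 10 CPM and 567 met the whole rule, which is 2.16% of those that reached 10 CPM. The mirrored rule, with stimulated below ex vivo, was met by 1255 regions (4.78%), and these closed regions are used below for comparison. The 567 members were thus chosen by their stimulated and ex vivo levels, and their stimulation ratios are given as a description with no test.

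The study asked how the loss of Ikaros, encoded by Ikzf1, alters the chromatin of Treg at rest and after stimulation. It had 12 libraries in 4 groups of 3 biological replicates: WT ex vivo, WT stimulated, Ikzf1-cko ex vivo and Ikzf1-cko stimulated. All mice carried Foxp3-YFP-Cre on a B6 background, a Cre recombinase expressed from the Foxp3 locus that is active in the Treg lineage, and the age of the mice used for ATAC-seq is not given in the sources used here. The Ikzf1-cko mice also carried a floxed Ikzf1 allele, from a parent strain that was homozygous for it (Ikzf1-fl/fl), while WT mice had the Cre alone. Treg were sorted as YFP+ cells, and the study's general purification methods name spleen and lymph nodes as the source. The sorted cells were divided, so that some were left unstimulated, the ex vivo groups. The rest were cultured for 4 h on plate-bound anti-CD3 and anti-CD28, and 100000 cells entered each library. Whether the unstimulated cells were also held in culture is not given in the sources used here, so the antibodies and any culture cannot be told apart. In a pool of sorted cells, more open cells and more opening per cell cannot be told apart either.

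Read totals over the 118680 regions ran from 4808916 to 15355521, and every Ikzf1-cko library was deeper than every WT library. The libraries of a group had Spearman correlations of 0.867 to 0.985 over all regions. The share of reads that lay in the most open 10% of regions was 45.7 to 48.5% in the WT stimulated libraries, and 53.8 to 60.8% in the other 9. Of the Treg genes checked, regions over the start sites of Foxp3 (4.65 to 9.43 CPM), Il2ra (18.1 to 26.5 CPM), Ctla4 (13.9 to 36.4 CPM), Cd4 (2.81 to 5.62 CPM) and Cd3e (15.1 to 26.7 CPM) were open in all 12 libraries, and Ikzf2 had no region there. None of the 4 B cell genes and 3 erythroid genes checked had a start-site region, 1 of 4 myeloid genes did (Cd68, 4.58 to 9.24 CPM), and both CD8 genes did (Cd8a 0.513 to 3.31 CPM, Cd8b1 13.1 to 21.9 CPM). The region over the Ikzf1 start site had 28.9 to 35.6 CPM in WT and 32.2 to 42.7 CPM in Ikzf1-cko libraries, which does not check the deletion, since the position of the floxed part is not given in the sources used here.

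Engagement of CD3 and CD28 activates calcium, MAP kinase and NF-kB signalling, and the factors these pathways switch on, among them AP-1, NFAT, NF-kB and the EGR zinc fingers, bind short DNA words at promoters and enhancers. Gene start sites with many CpG dinucleotides are open in most cells, whereas enhancers, which lie in introns and between genes, open in a cell type's own pattern. Ikaros is a zinc-finger factor of lymphocytes that binds a TGGGAA core and can recruit chromatin remodelling and repressor complexes.

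The following stretches of the mm9 reference are examples from the members, each picked for a word it holds. No member named for its ratio or for a listed gene held the AP-1 word in its central 300 bases, so these were chosen after the values were seen. The first 2 are the centres of the members over the start sites of Nr2f6 and Slc25a39, with the EGR word GCGNGGGCG in capitals. The last is a member in an intron, 2.78 kb from the start site of Sfi1, with the reverse complement of the Ikaros core in capitals. Most members held neither word in their central 300 bases. The EGR word was in 9.17% of members and the Ikaros core in 23.8%, beside 6.38 and 20.1% of all regions of 10 CPM or more.
OCR_108058, chr8:73905600-73905899, plus strand: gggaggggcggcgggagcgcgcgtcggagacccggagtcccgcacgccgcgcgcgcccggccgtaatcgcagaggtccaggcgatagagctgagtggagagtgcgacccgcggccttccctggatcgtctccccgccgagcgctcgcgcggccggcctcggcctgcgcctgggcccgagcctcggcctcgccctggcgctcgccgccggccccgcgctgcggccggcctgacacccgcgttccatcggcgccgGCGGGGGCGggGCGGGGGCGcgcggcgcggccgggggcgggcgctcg
OCR_20578, chr11:102268670-102268969, plus strand: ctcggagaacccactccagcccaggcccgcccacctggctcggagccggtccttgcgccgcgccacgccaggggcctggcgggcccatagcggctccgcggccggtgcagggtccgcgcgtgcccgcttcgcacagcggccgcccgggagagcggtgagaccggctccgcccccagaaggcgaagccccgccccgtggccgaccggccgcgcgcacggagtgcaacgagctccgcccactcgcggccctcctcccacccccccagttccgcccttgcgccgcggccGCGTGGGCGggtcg
OCR_15984, chr11:3096096-3096395, plus strand: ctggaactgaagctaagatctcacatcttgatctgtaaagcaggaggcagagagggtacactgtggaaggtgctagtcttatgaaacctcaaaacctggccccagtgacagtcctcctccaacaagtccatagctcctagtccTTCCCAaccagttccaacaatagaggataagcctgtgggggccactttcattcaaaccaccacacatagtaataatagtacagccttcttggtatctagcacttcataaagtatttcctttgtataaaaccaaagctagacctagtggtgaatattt

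Some members carried stretches of sequence that recurred in other members on other chromosomes. One aligned pair is printed for each of 3 such groups, described further below, with bases that were identical in the pair in capitals. The first pair (group 1) lay in introns of Gabrg3 and Ryr3 and was identical at 190 of 250 aligned columns. The second pair (group 2) was intergenic and identical at 196 of 250 columns, and the third pair (group 4) lay near the predicted genes Gm10722 and Gm10800 and was identical at 203 of 250 columns.
OCR_100722, chr7:64438596-64438842, plus strand: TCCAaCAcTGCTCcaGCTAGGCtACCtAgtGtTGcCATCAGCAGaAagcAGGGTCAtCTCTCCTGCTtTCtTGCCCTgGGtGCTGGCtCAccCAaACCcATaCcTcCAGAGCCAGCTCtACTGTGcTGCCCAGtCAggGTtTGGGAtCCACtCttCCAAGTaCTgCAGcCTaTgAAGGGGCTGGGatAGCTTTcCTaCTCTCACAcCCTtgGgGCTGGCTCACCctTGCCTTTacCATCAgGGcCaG
OCR_65325, chr2:113039891-113040138, minus strand: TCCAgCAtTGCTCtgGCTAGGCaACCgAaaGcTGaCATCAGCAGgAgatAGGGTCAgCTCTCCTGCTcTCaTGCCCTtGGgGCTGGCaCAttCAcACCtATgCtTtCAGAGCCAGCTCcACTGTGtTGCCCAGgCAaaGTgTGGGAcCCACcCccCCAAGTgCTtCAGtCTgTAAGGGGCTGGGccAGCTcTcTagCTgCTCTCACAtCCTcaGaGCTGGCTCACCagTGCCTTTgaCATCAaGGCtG
OCR_114777, chr9:87321852-87322098, plus strand: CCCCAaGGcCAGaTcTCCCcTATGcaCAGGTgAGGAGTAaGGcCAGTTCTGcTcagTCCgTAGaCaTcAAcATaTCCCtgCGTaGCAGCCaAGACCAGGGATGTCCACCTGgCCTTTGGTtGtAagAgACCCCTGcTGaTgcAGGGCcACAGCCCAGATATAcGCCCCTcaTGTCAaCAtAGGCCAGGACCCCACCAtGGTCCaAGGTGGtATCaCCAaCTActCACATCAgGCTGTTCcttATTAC
OCR_23452, chr12:40430659-40430902, plus strand: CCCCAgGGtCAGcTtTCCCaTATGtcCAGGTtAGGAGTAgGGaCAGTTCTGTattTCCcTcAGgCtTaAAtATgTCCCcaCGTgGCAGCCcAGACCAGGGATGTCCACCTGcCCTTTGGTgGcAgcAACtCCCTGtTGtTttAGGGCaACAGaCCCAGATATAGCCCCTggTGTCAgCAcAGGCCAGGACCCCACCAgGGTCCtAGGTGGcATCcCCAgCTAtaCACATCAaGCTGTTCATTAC
OCR_111294, chr9:3000017-3000264, plus strand: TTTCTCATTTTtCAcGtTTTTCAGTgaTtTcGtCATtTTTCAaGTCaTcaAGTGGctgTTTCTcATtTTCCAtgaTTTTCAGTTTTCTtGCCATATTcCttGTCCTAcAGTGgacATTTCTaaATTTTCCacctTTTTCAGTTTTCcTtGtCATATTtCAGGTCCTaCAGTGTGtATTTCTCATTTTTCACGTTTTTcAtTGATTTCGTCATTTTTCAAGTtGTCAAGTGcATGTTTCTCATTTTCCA
OCR_64687, chr2:98507208-98507455, minus strand: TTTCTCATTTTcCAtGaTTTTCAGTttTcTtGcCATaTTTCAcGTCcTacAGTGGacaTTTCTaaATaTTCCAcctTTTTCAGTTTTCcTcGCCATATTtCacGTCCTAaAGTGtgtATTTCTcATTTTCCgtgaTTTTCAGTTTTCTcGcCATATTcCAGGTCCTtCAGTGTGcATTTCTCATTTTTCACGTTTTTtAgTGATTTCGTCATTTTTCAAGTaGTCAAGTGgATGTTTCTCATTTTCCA

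Members lay both at gene start sites and away from them. Of the 567, 222 (39.2%) overlapped a gene start site, 61 (10.8%) an exon, 75 (13.2%) an intron, and 209 (36.9%) were intergenic. Among the closed regions 3.75% lay at start sites and 50.0% in introns, and among all regions of 10 CPM or more 40.8% lay at start sites, 7.01% in exons, 23.8% in introns and 28.4% between genes. The median distance to a start site was 3.28 kb in members and 3.47 kb in all regions of 10 CPM or more. Members had a median GC content of 56.4%, against 47.3% in closed regions and 52.9% in all regions of 10 CPM or more, and a median length of 1021 bases, against 701 in closed regions. The median GC content was 64.4% in members at start sites and 52.2% in the others. Chromosome 11 held 86 members (15.2%) and chromosome 4 held 67 (11.8%), against 6.13% and 6.27% of all regions of 10 CPM or more.

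Stimulated levels were less than 2 times the ex vivo level in at least one genotype for most members. The log2 ratio of stimulated to ex vivo mean, with 0.5 CPM added to both, had a median of 0.87 in WT (0.55 to 1.95) and 0.74 in Ikzf1-cko (0.53 to 1.52). Both folds were at least 2 in 93 members. The same ratio had a median of −0.22 in WT and −0.04 in Ikzf1-cko over all regions of 10 CPM or more, and of 0.39 and 0.18 over the 92412 regions below 10 CPM. Stimulated means reached 10 CPM in both genotypes in 298 members, in WT alone in 245 and in Ikzf1-cko alone in 24. The share of a library's reads that fell in the members was 0.837 to 1.13% in WT ex vivo, 1.90 to 2.06% in WT stimulated, 0.722 to 0.763% in Ikzf1-cko ex vivo and 1.29 to 1.5% in Ikzf1-cko stimulated libraries. These shares were not spread evenly over the members. The neighbouring regions OCR_50459 and OCR_50460, described further below, alone had means of 4148.3 and 1146.2 CPM in WT stimulated and 1657.5 and 548 CPM in WT ex vivo Treg. The rule alone was met by 1797 regions in WT and 886 in Ikzf1-cko, so the members were 31.6% of the first and 64.0% of the second.

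Start-site members and the rest differed in how the genotypes compared. Over the 222 start-site members the median level was 12 to 12.9 CPM in WT ex vivo libraries and 19.2 to 23.2 CPM in WT stimulated libraries, beside 11.5 to 12.6 and 19.8 to 20.3 CPM in Ikzf1-cko. Over the 345 members away from start sites it was 5.23 to 7.50 and 13.2 to 14.7 CPM in WT, beside 4.14 to 4.96 and 7.33 to 9.43 CPM in Ikzf1-cko. Away from start sites the Ikzf1-cko libraries thus lay below every WT library of the same state, while at start sites the genotypes overlapped ex vivo and after stimulation. The rule favours a lower Ikzf1-cko level after stimulation, since 245 members reached 10 CPM there in WT alone and 24 in Ikzf1-cko alone. Of the 345 away from start sites, 126 reached it in both genotypes.

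**Figure D1:**
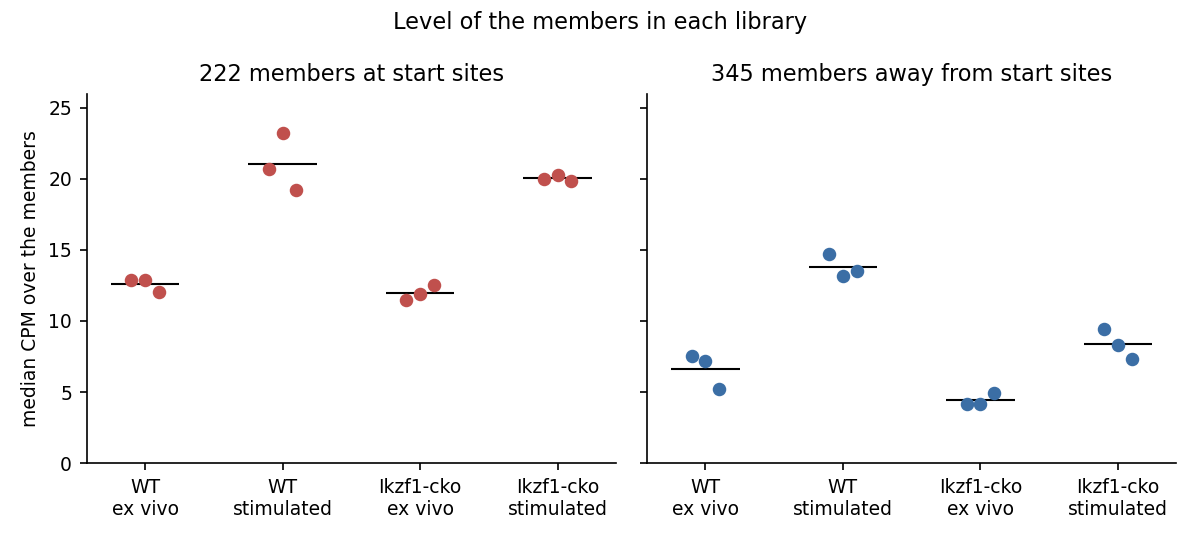
Each point is the median CPM over the members in one library (vertical axis, from 0), for the 222 members at start sites (left) and the 345 away from them (right), by group (horizontal axis), and each line is the mean of the group's 3 points. Start-site members reached about the same level in both genotypes after stimulation. Members away from start sites sat at 13.2 to 14.7 CPM in WT stimulated and at 7.33 to 9.43 CPM in Ikzf1-cko stimulated libraries. The minimum of 10 CPM could be reached in WT stimulated Treg alone, which favours such a difference.

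By the mean of the 2 log2 ratios, the member with the largest response was OCR_99661 (chr7:31305099-31306248, mm9), 13.5 kb from the start site of Arhgap33, which encodes a GTPase-activating protein. It had 2.50, 4.24 and 2.79 CPM in WT ex vivo and 10.7, 12.4 and 9.77 CPM in WT stimulated libraries. In Ikzf1-cko it had 1.82, 1.38 and 2.14 CPM ex vivo and 7.27, 5.90 and 4.45 CPM after stimulation. Stimulated means were thus 3.46 and 3.30 times the ex vivo means, from a level that was under 5 CPM ex vivo in all 6 libraries.

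The other members among the 10 with the largest mean ratio were also mostly low ex vivo and mostly away from start sites. OCR_108030 lay in an exon 0.9 kb from the start of A230052G05Rik and rose from means of 4.01 to 12.9 CPM in WT and from 3.23 to 9.47 CPM in Ikzf1-cko. OCR_44060 lay in an intron, 9.46 kb from the start site of Txndc11 (a thioredoxin-domain gene of the endoplasmic reticulum). It was the most open of the 10, with 38.1, 32.2 and 22.0 CPM in WT ex vivo, 85.7, 80.8 and 74.2 in WT stimulated, 20.4, 19.3 and 18.1 in Ikzf1-cko ex vivo and 52.8, 46.2 and 44.6 in Ikzf1-cko stimulated libraries. Its folds were 2.61 and 2.48. OCR_83818, 217 kb from A430005L14Rik, had folds of 4.42 in WT and 2.16 in Ikzf1-cko, and OCR_42642, in an intron of the inositol transporter gene Slc2a13, 3.94 and 2.04. OCR_107100 and OCR_36826 lay in introns, 46.9 kb from the start sites of Sorbs2 (a cytoskeletal adaptor) and Ccdc122 respectively. These and OCR_56305, 258 kb from 4930546C10Rik, had folds of 2.45 to 3.14 across both genotypes. Start sites gave 2 of the 10, Cbx7 and Parvb.

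Cbx7 encodes a chromodomain protein of a Polycomb complex, and OCR_41923 over its start site (chr15:79764226-79764856) had the largest mean ratio of the start-site members. It had 3.46, 3.71 and 2.44 CPM in WT ex vivo and 9.59, 15 and 9.98 in WT stimulated libraries, and 4.30, 2.54 and 3.76 and then 6.94, 9.06 and 8.46 in Ikzf1-cko. Over the start of Parvb, which encodes the focal adhesion protein beta-parvin, OCR_42248 had 3.66, 3.18 and 2.21 CPM in WT ex vivo, 10.9, 9.68 and 11 in WT stimulated, 1.30, 1.45 and 1.88 in Ikzf1-cko ex vivo and 5.10, 2.65 and 3.40 in Ikzf1-cko stimulated libraries. The stimulated levels of the genotypes did not overlap in either region. The next 3 start sites were those of Auts2 (folds 3.13 and 2.34), the predicted gene Gm9590 (3.23 and 2.05) and Luzp2 (3.32 and 2.04), and all 3 stayed under 6 CPM in the ex vivo libraries. Auts2 is best known as a neurodevelopmental gene.

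The start-site members named in this paragraph and the next were chosen after their values were seen. The most open of all, over the predicted genes Gm10800 and Gm10801, are described further below with the highest levels. Another was OCR_104167 over the start of Maz, a zinc-finger transcription factor gene. It had 38.9, 41.3 and 40.7 CPM in WT ex vivo, 74.9, 80.9 and 71.9 in WT stimulated, 39.5, 43.7 and 50.3 in Ikzf1-cko ex vivo and 75.1, 76.1 and 76.7 in Ikzf1-cko stimulated libraries, so the 2 genotypes overlapped in each state. OCR_13030 over Fzr1, an activator of the anaphase-promoting complex, rose from means of 58.3 to 90.7 CPM in WT and 61.6 to 99.3 CPM in Ikzf1-cko. OCR_57604 over Kdm2a, a histone demethylase gene, went from 35.6 to 63.1 and from 33.1 to 58.4 CPM, and OCR_12896 over the Kruppel-like factor gene Klf16 from 37.1 to 59.9 and from 39.7 to 64.5 CPM.

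Nr2f6, whose region is printed above, encodes an orphan nuclear receptor that restrains cytokine transcription in T cells. OCR_108058 over its start had 13.9, 14.3 and 12.7 CPM in WT ex vivo, 29.3, 30.9 and 23.1 in WT stimulated, 12.2, 14.5 and 12.4 in Ikzf1-cko ex vivo and 28.4, 24.0 and 25.2 in Ikzf1-cko stimulated libraries. Slc25a39, whose start is also printed, encodes a mitochondrial carrier, and its region OCR_20578 went from 10.1 to 21.5 CPM in WT and from 10.4 to 19.2 CPM in Ikzf1-cko. The start of Lif, a cytokine gene of the IL-6 family, had 6.85 ± 0.759 CPM (SD, n = 3) in WT ex vivo and 12.9 ± 2.89 in WT stimulated libraries, and 7.45 ± 1.17 and 11.7 ± 0.956 CPM in Ikzf1-cko (OCR_16060). The start of Icam1, an adhesion ligand for LFA-1, had 12.9 ± 0.332 and 21.5 ± 2.50 CPM in WT and 11.9 ± 0.596 and 20.8 ± 1.64 CPM in Ikzf1-cko (OCR_111911). The libraries of the genotypes overlapped in each state for all 4 genes, and none had a genotype difference at adjusted p under 0.05 in edgeR's quasi-likelihood test in either state.

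Few members lay nearest to known genes of T cell activation and Treg state. Across 12 lists of such genes, 137 genes in all, 948 regions of 10 CPM or more had a listed gene as their nearest, and 7 of these were members (0.738%, beside 2.16% over all such regions), while 103 were closed regions (10.9%, beside 4.78%). The 7 belonged to AP-1 factors (Jund), NF-kB factors and inhibitors (Nfkbia), TNF family ligands (Ltb), cytokines and chemokines (Ebi3), costimulatory and inhibitory receptors (Btla), and feedback on TCR signalling (Dusp5 and Zfp36l1). The other 6 lists, NFAT, Nr4a and Egr factors, TNF receptors, the IL-2 receptor and STAT5 pathway, effector Treg factors, Myc and metabolism, and naive-state factors, held no member.

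Ltb encodes lymphotoxin beta, a ligand of lymphoid tissue organisation, and OCR_50255 over its start site had 14.6, 14.3 and 12 CPM in WT ex vivo and 24.3, 34.9 and 27 in WT stimulated libraries. In Ikzf1-cko it had 13.5, 14 and 11.2 CPM ex vivo and 25.7, 19.2 and 23.5 CPM after stimulation. Stimulated levels overlapped between the genotypes, and the log2 difference was −0.33 (SE 0.13, edgeR adjusted p = 0.0304).

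Ebi3 encodes the shared subunit of IL-27 and IL-35, the second of which is a Treg cytokine. OCR_51249 over its start had 4.62, 4.77 and 4.30 CPM in WT ex vivo, 9.76, 8.95 and 9.57 in WT stimulated, 7.95, 7.85 and 7.61 in Ikzf1-cko ex vivo and 14.7, 10.9 and 12.4 in Ikzf1-cko stimulated libraries. Here all Ikzf1-cko libraries lay above the WT libraries of the same state, unlike the bulk of the members. The log2 difference was 0.78 ex vivo (SE 0.17, edgeR adjusted p = 0.00138) and 0.42 after stimulation (SE 0.15, adjusted p = 0.0195).

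The remaining 5 were away from start sites and modest. Near Jund, an AP-1 subunit gene, OCR_107999 (2.19 kb from the start) went from 6.40 ± 0.329 to 12.6 ± 1.15 CPM (SD, n = 3) in WT and from 7.14 ± 0.887 to 11.9 ± 0.448 CPM in Ikzf1-cko. Nfkbia encodes the NF-kB inhibitor IkBa, and OCR_23988, 31.7 kb away, went from 5.03 to 9.99 CPM and from 6.15 to 11.6 CPM. Near Dusp5, a MAP kinase phosphatase gene, OCR_59468 (49.4 kb away) went from 5.74 to 9.80 CPM in WT and from 5.09 to 12.8 CPM in Ikzf1-cko, with folds of 1.71 and 2.51. OCR_24982, 47.7 kb from the mRNA decay factor gene Zfp36l1, went from 5.90 to 9.81 CPM and from 7.74 to 14.5 CPM. Both of these were higher in stimulated Ikzf1-cko than WT Treg by edgeR's test (log2 0.38, adjusted p = 0.0373 for Dusp5, and 0.55, adjusted p = 0.00364 for Zfp36l1). OCR_45812 lay in an intron of Btla, an inhibitory receptor gene, at 5.38 to 8.81 CPM in WT and 6.81 to 11.3 CPM in Ikzf1-cko, and over 50% of the 31-base words in it occurred elsewhere in the genome too. All 7 had an absolute log2 difference between genotypes of under 1, the size needed for a call.

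The AP-1 word was found in fewer members than closed regions, and the EGR word in more. Each word was searched on both strands in the central 300 bases, and words of different factors may overlap and were counted separately. The AP-1 word TGACTCA was found in 4.59% of members, in 18.6% of closed regions and in 10.3% of all regions of 10 CPM or more. The NF-kB word GGANTTTCC was in 1.23, 2.87 and 2.01% and the NFAT word TGGAAA in 18.3, 23.2 and 19.1% of the same 3 sets. For the EGR word GCGNGGGCG the order was the other way, with 9.17% of members, 0.956% of closed regions and 6.38% of all.

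The RUNX, TCF and forkhead words were also scarcer in the members than in closed regions, while the ETS word was more common. RUNX (TGTGGTT) was in 5.47, 16.6 and 8.91% of members, closed and all regions of 10 CPM or more, TCF (ATCAAAG) in 3.70, 8.05 and 4.19%, and forkhead (GTAAACA) in 2.29, 5.10 and 3.59%. The CTCF core AGGGGGC was in 12.9, 4.06 and 9.74%, and the Ikaros core TGGGAA in 23.8, 21.6 and 20.1%. The ETS word CCGGAAG was in 6.88, 2.63 and 8.45%, the NR4A word AAAGGTCA in 1.94, 1.35 and 1.82%, and the CRE word TGACGTCA in 1.59, 2.55 and 1.58%. The STAT word TTCNNNGAA was in 7.76, 9.8 and 8.13% and the E-box CACGTG in 5.64, 10.1 and 6.95%. Shares also differed by place, and 39.2% of members lay at start sites, beside 3.75% of closed regions. Of the start-site members 19.8% held the EGR word, beside 13.0% of all start-site regions of 10 CPM or more, and 20.7% the CTCF core, beside 14.2%. Both words are rich in G and C, and the median GC content was 64.4% in start-site members, beside 60.3% in all such regions. The part of base composition in these shares was not tested. Away from start sites 6.67% of members held the AP-1 word, beside 15.6% of all regions of that level there, 7.54% the RUNX word, beside 13.0%, and 29% the Ikaros core, beside 22.2%. These shares are counts of matching letters and say nothing of binding.

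**Figure D2:**
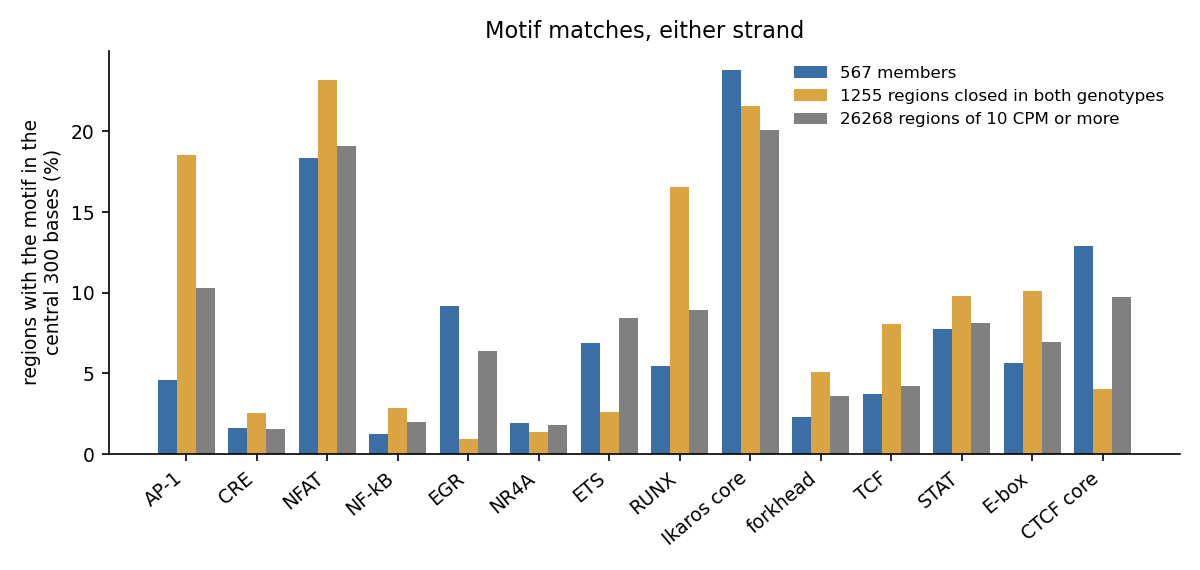
Bars give the percentage of regions (vertical axis, from 0) whose central 300 bases hold each word on either strand (horizontal axis), for the 567 members, the 1255 closed regions and the 26268 regions of 10 CPM or more. The AP-1 and RUNX words were found in 4.59 and 5.47% of members against 18.6 and 16.6% of closed regions, and the EGR word in 9.17% against 0.956%.

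Some members lay close together along the chromosomes. A count of runs by the same criterion is not given here for closed regions or all regions of 10 CPM or more. Runs of at least 8 members with gaps of at most 100 kb were sought after the values had been seen, and 4 runs held 77 members (13.6%) and none of the closed regions. The first (chr1:90108255-90207304) held 33 members among its 40 regions of 10 CPM or more, and lay over or near Ugt1a1, which conjugates bilirubin with glucuronic acid, Heatr7b1, Hjurp, a centromere histone chaperone gene, and Trpm8, a cold-sensing channel gene. Of these 33 members, 21 lay in exons and 9 in introns. Their median level was 10.2 CPM in WT ex vivo, 22.9 in WT stimulated, 5.84 in Ikzf1-cko ex vivo and 12.4 in Ikzf1-cko stimulated groups.

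The second run (chr11:3026924-3099996) held 19 members among 46 such regions over or near Sfi1, a centrosome gene, and the neighbouring Eif4enif1. The 19 members had median levels of 53.4, 87.7, 31.3 and 52.7 CPM in the same order of groups. The remaining 2 runs lay on chromosome 4, near predicted genes (chr4:145676286-145744037 with 9 members of 10 regions, and chr4:146609017-146973849 with 16 of 18). In the 4 runs, in the order given, 0, 1, 1 and 5 members had over 50% of their 31-base words elsewhere in the genome. The regions of 10 CPM or more within the 4 runs that were not members had median log2 ratios of 0.27 to 1.27 in WT and 0.34 to 0.76 in Ikzf1-cko, above the −0.22 and −0.04 over all regions of that level.

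The highest counts came from a handful of members. Of the 567, 14 had a group mean over 100 CPM. OCR_50459 (chr17:39980016-39983685), an intergenic region where mm9 carries a copy of 45S ribosomal RNA sequence, had 2008.4, 1757.8 and 1206.3 CPM in WT ex vivo and 4171.1, 4552.2 and 3721.6 in WT stimulated libraries. In Ikzf1-cko it had 1107.5, 1073.4 and 941.0 CPM ex vivo and 2969.5, 2405.9 and 2266.0 after stimulation. The libraries of the 4 groups did not overlap, with WT above Ikzf1-cko in each state. The neighbouring OCR_50460 (chr17:39984447-39985781) rose from means of 548 to 1146.2 CPM in WT and 308 to 684 CPM in Ikzf1-cko.

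Also among the 14 were OCR_64687 and OCR_64685, over the starts of the predicted genes Gm10800 and Gm10801 on chromosome 2. OCR_64687 had 417, 402 and 286 CPM in WT ex vivo, 507, 585 and 573 in WT stimulated, 196, 191 and 187 in Ikzf1-cko ex vivo and 340, 334 and 276 in Ikzf1-cko stimulated libraries. Its fold of 1.51 in WT was just over the minimum. Of the other 10 members over 100 CPM, 7 had Sfi1 as their nearest gene, among them OCR_15984, whose sequence is printed above. Reads from near-identical copies of a sequence can be split or placed on one copy by an aligner, so these levels are uncertain as values of the single place where they are given. None of the 567 members matched the mitochondrial genome over 100 aligned bases or more.

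Shared sequence was found in a larger share of the members than of the closed regions. Of the 567, 81 (14.3%) shared at least 200 aligned bases with another member (BLAST, e-value at most 1e-20), in 7 groups of 3 or more and 12 pairs, and 4 of the 81 lay at start sites. Among the 1255 closed regions 19 (1.51%) shared such sequence with another closed region, in groups of up to 4. The closed set was larger and its regions were shorter (median 701 bases, beside 1021 in members). The same share was not counted over all regions of 10 CPM or more. Sequence that is repeated exactly was less common, and 24 members (4.23%) had over 50% of their 31-base words elsewhere in mm9, beside 12 closed regions (0.956%) and 258 of all regions of 10 CPM or more (0.982%). No repeat annotation was used here, so the groups are given by number.

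Group 1 had 22 members on 12 chromosomes, 17 intergenic and 5 in introns, with a median GC content of 54.7% and a median identity of 75.3% where they aligned. The pair printed above shows it. OCR_100722, in an intron of the GABA receptor gene Gabrg3, had 6.16, 5.70 and 4.19 CPM in WT ex vivo, 15.7, 12.1 and 13.5 in WT stimulated, 1.95, 2.83 and 2.99 in Ikzf1-cko ex vivo and 7.92, 5.70 and 4.62 in Ikzf1-cko stimulated libraries. OCR_65325, in an intron of the calcium channel gene Ryr3, had 4.81, 5.17 and 3.49 CPM and then 12.6, 9.68 and 12.5 in WT, and 2.60, 1.67 and 3.59 CPM and then 4.66, 4.58 and 4.45 in Ikzf1-cko. In both, every WT stimulated library lay above every library of the other 3 groups. Of the 22 members 6 were called lower in Ikzf1-cko Treg ex vivo and 17 after stimulation, by the genotype test described below, beside 4.04% and 20.2% of all tested regions and 1.29% and 4.34% of regions of 10 CPM or more. The median level of the 22 was 12.2 CPM in WT stimulated and 5.55 CPM in Ikzf1-cko stimulated Treg. A member could meet the minimum of 10 CPM through WT stimulated Treg alone, which favours such calls after stimulation.

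In all, 65 regions of 10 CPM or more matched group 1, and none of them was closed in both genotypes. The 43 that were not members had a median log2 ratio of 1.19 in WT and 0.47 in Ikzf1-cko, and 40 and 38 of them were over 0. Of these 43, 38 reached 10 CPM in WT stimulated Treg alone, which favours a high WT ratio, so these ratios are no independent sign of a response. The 174 matching regions below 10 CPM had medians of 1.05 and 0.60, beside 0.39 and 0.18 over all regions below 10 CPM. Group 2 had 15 members on 9 chromosomes, 12 intergenic and 3 in introns, with a median GC content of 54.4%. Of 52 matching regions of 10 CPM or more none was closed in both genotypes, and the 37 that were not members had median log2 ratios of 1.13 and 0.45, with 34 and 35 of them over 0. Here 31 of the 37 reached 10 CPM in WT stimulated Treg alone, and the 107 matching regions below 10 CPM had medians of 1.11 and 0.64. Other groups differed. In group 3, with 6 members, the 58 matching regions of 10 CPM or more that were not members had medians of −0.28 and 0.07, 18 of them were over 0 in WT, and 2 matching regions were closed. In group 6, with 3 members, the 10 such regions had medians of 0.21 and 0.03. OCR_114777 of group 2 had 7.31, 5.96 and 4.42 CPM in WT ex vivo, 18.2, 11.1 and 10.2 in WT stimulated, 3.26, 2.98 and 4.70 in Ikzf1-cko ex vivo and 9.33, 7.23 and 4.97 in Ikzf1-cko stimulated libraries.

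**Figure D3:**
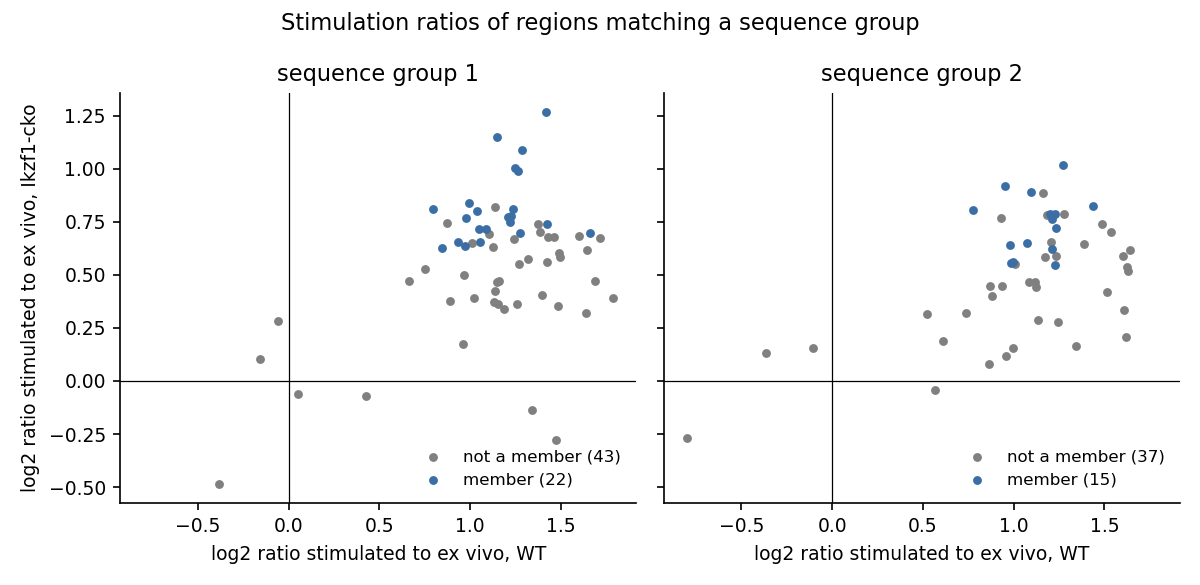
Each point is a region of 10 CPM or more that matches a member of sequence group 1 (left) or 2 (right), with its log2 ratio of stimulated to ex vivo mean in WT (horizontal axis) and in Ikzf1-cko (vertical axis), members in blue and other regions in grey. Most of the grey points (43 and 37) lie to the right of and above 0, with medians of 1.19 and 1.13 in WT and 0.47 and 0.45 in Ikzf1-cko, and 38 and 31 of them reached 10 CPM in WT stimulated Treg alone.

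Group 4 was different in kind. Its 5 members, near Gm10722, Gm10800, Gm10801, Gm5614 and 1700012B15Rik on 3 chromosomes, had a median GC content of 35.3% and a median identity of 95.2%. In 3 of them the sequence matched itself best when shifted by 234 bases (70.1% of bases in OCR_111294, 61.2% in OCR_112538 and 50.4% in OCR_64687), which is the length of the unit of mouse major satellite, the tandem repeat of the blocks beside the centromeres. OCR_111294 had 14, 12.5 and 9.89 CPM in WT ex vivo, 22.3, 23.8 and 17.9 in WT stimulated, 6.12, 4.65 and 4.53 in Ikzf1-cko ex vivo and 12.5, 9.36 and 9.94 in Ikzf1-cko stimulated libraries. Median levels over the 5 were 83.3, 141, 40.7 and 80.8 CPM in the same order of groups. The group's median log2 ratio was 0.75 in WT and 0.92 in Ikzf1-cko, so here the ratio was the larger one in Ikzf1-cko, whereas in groups 1 and 2 it was larger in WT (1.18 against 0.77, and 1.20 against 0.76).

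The genotypes were compared in edgeR over all tested regions, with a call where the adjusted p was under 0.05 and the difference was larger than 1 on the log2 scale. The rule did not compare the genotypes, but it used the ex vivo levels of both and a minimum that a region could reach in one group alone, so the calls of members are not independent of it. Ex vivo, 82 members were lower and 2 were higher in Ikzf1-cko Treg. Of all 69957 tested regions 4.04% were called lower and 0.588% higher, and of the regions of 10 CPM or more 1.29% and 0.712%. The median log2 difference was −0.56 over members and −0.13 over all tested regions, and scaling by trimmed mean of M-values (TMM) moved the second to −0.02 and left the members 0.42 below it, beside 0.43 with library totals. Of the 82, 60 were among the 245 members that reached 10 CPM after stimulation in WT alone (median −0.80), and 22 were among the 298 that reached it in both genotypes (median −0.06). The 82 calls were 45 under TMM, and 52, 43, 180 and 141 without WT ex vivo replicate 1, 2 or 3 or Ikzf1-cko ex vivo replicate 3.

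Place separated the members. Away from start sites 76 of 345 members (22.0%) were lower ex vivo, beside 2.07% of all regions of 10 CPM or more there, with a median log2 difference of −0.78 beside −0.00. At start sites 6 of 222 (2.70%) were lower, beside 0.159%, with a median of −0.04 beside 0.11. By place the count was 10 of 61 in exons, 20 of 75 in introns and 46 of 209 between genes, beside 2.72, 1.73 and 2.20% of all regions of 10 CPM or more at these places. The median difference also went with base composition, at −0.97, −0.75, −0.26 and −0.03 in members with a GC content of up to 45%, 45 to 55%, 55 to 65% and over 65%, beside −0.02, 0.02, 0.10 and 0.10 in all regions of 10 CPM or more. Members in runs or in groups of shared sequence gave 38 of 150 lower (25.3%), and members outside both and away from start sites gave 39 of 200 (19.5%).

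**Figure D4:**
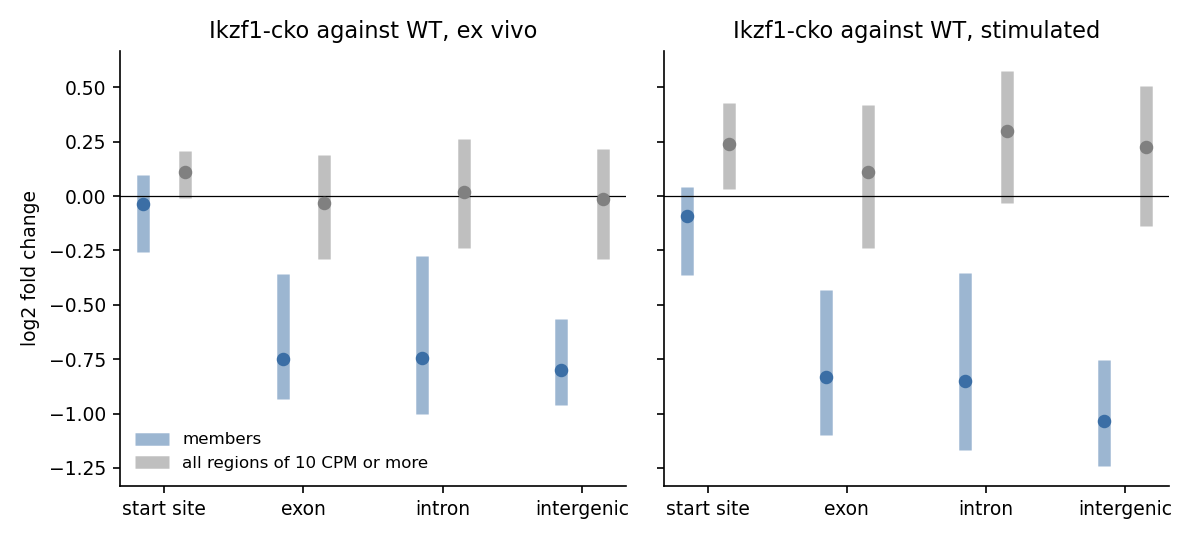
Points are median log2 fold changes of Ikzf1-cko against WT (vertical axis) and bars run from the lower to the upper quartile of the regions, for members (blue) and all regions of 10 CPM or more (grey), by place in the annotation (horizontal axis), ex vivo (left) and stimulated (right). Members at start sites had medians of −0.04 and −0.09, and members between genes had medians of −0.80 and −1.03.

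Among the 82 members called lower ex vivo, the one with the smallest p was OCR_15984 near Sfi1 (chr11:3095594-3096896). It had 155, 170 and 99.7 CPM in WT and 70.7, 68.1 and 67.2 CPM in Ikzf1-cko libraries, and 264, 257 and 253 against 163, 139 and 129 CPM after stimulation. WT was above Ikzf1-cko in every library of each state (log2 −1.03 ex vivo, SE 0.11, edgeR adjusted p = 4.46e-08). The size was close to that needed for a call and fell short of it without WT ex vivo replicate 1 or 2 (−0.97 and −0.87), under TMM (−0.91) and in DESeq2 (−0.94). Its neighbour OCR_15987 lay in an intron, 2.66 kb from the start site of the translation repressor gene Eif4enif1. It had 37.9, 42.0 and 24.2 CPM in WT and 14.9, 14.8 and 16.1 CPM in Ikzf1-cko ex vivo (log2 −1.17, SE 0.13, adjusted p = 8.82e-08, and −0.98 without WT ex vivo replicate 2). OCR_69492, 53.4 kb from the RNA polymerase III subunit gene Polr3k, had 37.9, 37.2 and 19.8 CPM in WT and 11.5, 9.74 and 10.3 CPM in Ikzf1-cko (log2 −1.55, SE 0.17, adjusted p = 9.91e-08). In all 3, replicate 3 was the lowest of the WT ex vivo libraries, and that library also had the highest share of reads in the most open regions among them (57.6%, beside 53.8 and 54.2%). Without that library the 3 log2 differences were −1.25, −1.40 and −1.83.

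Only 2 members were called higher in Ikzf1-cko ex vivo. OCR_9927, in an intron of Hbs1l, a ribosome rescue factor gene beside Myb, had 3.08, 3.58 and 3.14 CPM in WT and 8.47, 8.14 and 7.09 CPM in Ikzf1-cko (log2 1.27, SE 0.20, edgeR adjusted p = 2.92e-05). After stimulation it had 4.13, 6.94 and 4.99 CPM in WT and 9.87, 13.7 and 12.8 CPM in Ikzf1-cko, and was the only member called higher in that state (log2 1.19, SE 0.19, adjusted p = 8.31e-06). OCR_63586, 110 kb from the transcription factor gene Sp3, had 2.50, 3.71 and 2.91 CPM in WT and 6.58, 7.20 and 6.75 CPM in Ikzf1-cko ex vivo (log2 1.14, SE 0.20, adjusted p = 8.42e-05). Neither region overlapped between genotypes in either state.

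After stimulation 185 members were lower in Ikzf1-cko and 1 was higher. Of all tested regions 20.2% were called lower and 1.16% higher in this comparison, and of the regions of 10 CPM or more 4.34% and 2.07%. The median log2 difference was −0.73 over members, −0.11 over all tested regions and 0.24 over regions of 10 CPM or more. The WT stimulated libraries had the lowest share of reads in the most open regions (45.7 to 48.5%, beside 57.1 to 60.1% in Ikzf1-cko stimulated libraries), and their part in the result was not tested. A fit with a loess correction against abundance, which removes a trend of the difference with level, called 206 members lower. That fit called 3.91% of all tested regions lower, beside the 20.2% above. Start sites again had fewer calls, 26 of 222 (11.7%, beside 2.40% of all start-site regions of 10 CPM or more) with a median of −0.09, than the rest, 159 of 345 (46.1%, beside 5.68%) with a median of −0.97.

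The rule favours such calls after stimulation, because a region needed 10 CPM in one group only. In the 245 members that reached 10 CPM after stimulation in WT alone, 160 were lower in stimulated Ikzf1-cko Treg. In the 298 that reached it in both genotypes 25 were lower. Of these, the 172 at start sites had median log2 differences of 0.03 ex vivo and −0.02 after stimulation, and the 126 away from start sites −0.71 and −0.75, with 20 and 24 called lower.

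The smallest p after stimulation was at OCR_84399 (chr5:15004231-15005012), 25.7 kb from the predicted gene Gm10354. It had 25.6, 13.9 and 12.7 CPM in WT and 3.04, 2.24 and 1.92 CPM in Ikzf1-cko stimulated libraries, and 7.12, 6.89 and 2.44 against 1.11, 0.872 and 1.62 CPM ex vivo (log2 −2.89 stimulated, SE 0.28, edgeR adjusted p = 8.22e-09). OCR_84385, 17.3 kb from the same gene, had 14.6, 10.4 and 8.94 CPM in WT and 1.95, 1.22 and 0.959 CPM in Ikzf1-cko after stimulation (log2 −3.06, SE 0.32, adjusted p = 2.03e-08). These 2 members of one neighbourhood were the farthest from WT among the members named here. OCR_84385 had few reads in Ikzf1-cko, 10, 11 and 11 ex vivo and 18, 12 and 11 after stimulation. Its lowest stimulated library there (0.959 CPM) lay barely above its highest ex vivo library (0.940 CPM), so its opening in Ikzf1-cko is uncertain. OCR_15987 was next by p among the called members (65.3, 69.8 and 67.8 against 32.6, 32.8 and 28.7 CPM, log2 −1.11, SE 0.11, adjusted p = 2.12e-08).

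Whether the stimulation response itself differed was tested as an interaction, the Ikzf1-cko response minus the WT response. The rule bounds both responses from below, and its minimum also tilts which is the larger, since 245 members reached 10 CPM after stimulation in WT alone and 24 in Ikzf1-cko alone. In 381 of 567 members (67.2%) the WT ratio was the larger one, beside 29.8% of all regions of 10 CPM or more and 66.2% of those below. The median interaction was −0.31 in the 245 and −0.02 in the 298 that reached 10 CPM in both genotypes. The interaction was called for 2 members, both lower in Ikzf1-cko, and for 1.4% (lower) and 0.579% (higher) of all tested regions, or 0.845% and 0.739% of regions of 10 CPM or more. No member was called higher by edgeR's test, where 2 were higher at an unadjusted p under 0.05 and DESeq2 called none, with 1 at an unadjusted p under 0.05. The 2 calls did not appear under DESeq2, which had 19 members lower at an unadjusted p under 0.05, beside 38 in edgeR, and which gave no adjusted p for 205 of the 567 members. Without one library at a time the number of calls became 0 (WT ex vivo replicate 3, WT stimulated replicate 1, Ikzf1-cko ex vivo replicate 3, Ikzf1-cko stimulated replicate 2 or 3), 1 (WT stimulated replicate 3), 2 (WT ex vivo replicate 2), 3 (WT ex vivo replicate 1), 4 (Ikzf1-cko ex vivo replicate 2), 6 (WT stimulated replicate 2 or Ikzf1-cko stimulated replicate 1) or 8 (Ikzf1-cko ex vivo replicate 1). The members called also changed. Only 1 of the 2 was still called without WT ex vivo replicate 1 or 2 or Ikzf1-cko ex vivo replicate 1. The call left without WT stimulated replicate 3 was neither of them. The median interaction was −0.10 over members, 0.00 over all tested regions and 0.16 over regions of 10 CPM or more.

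OCR_22535 (chr12:19887936-19888834), 276 kb from the predicted gene Gm9257, had 2.50, 2.78 and 1.40 CPM in WT ex vivo, 12.1, 7.31 and 10.8 in WT stimulated, 1.43, 1.96 and 2.31 in Ikzf1-cko ex vivo and 3.9, 2.75 and 3.49 in Ikzf1-cko stimulated libraries. The genotypes overlapped ex vivo and not after stimulation (interaction log2 −1.36, SE 0.39, edgeR adjusted p = 0.0281). OCR_100087 (chr7:47235238-47236290), 391 kb from the predicted gene Gm2058, had 3.85, 4.11 and 3.02 CPM and then 13.1, 9.32 and 11.6 CPM in WT, and 2.80, 1.74 and 2.65 CPM and then 4.66, 2.85 and 3.66 CPM in Ikzf1-cko (interaction log2 −1.02, SE 0.33, adjusted p = 0.05, just inside the threshold). Both lay under 5 CPM in every library except those of WT stimulated Treg, and so met the minimum through that group alone. The values stayed negative in every alternative run, from −1.39 to −1.07 and from −1.13 to −0.87 among those that ended the call.

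**Figure D5:**
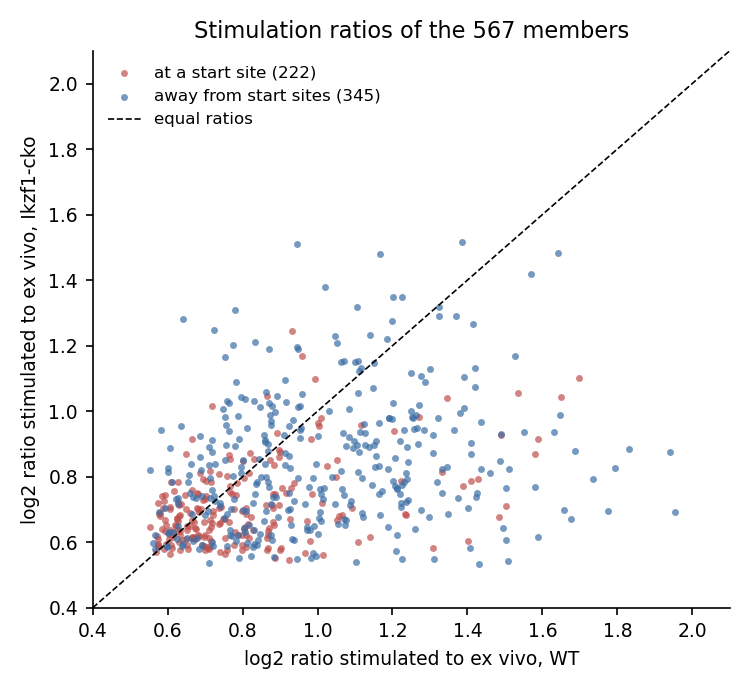
Each point is one of the 567 members, with its log2 ratio of stimulated to ex vivo mean in WT (horizontal axis) and in Ikzf1-cko (vertical axis), start-site members in red, the others in blue, and the dashed line marking equal ratios. The rule leaves no point under about 0.5 on either axis, and 381 members lie below the line, where the WT ratio is the larger one.

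The thresholds cut through a continuous range. By level the members nearest to 10 CPM were OCR_2674 and OCR_91801 (both 10.0 CPM), and OCR_69123 and OCR_58085 (9.99 and 9.98 CPM) were left out. By fold OCR_49589 over Lemd2 and OCR_19056 over Ywhae were inside at 1.5003 and 1.5005, and OCR_43143 over Mcrs1 and OCR_69468 over Zbtb46 outside at 1.4997 and 1.4996. By the gap between the lowest stimulated and the highest ex vivo library, OCR_14774 and OCR_55104 were inside at 0.0127 and 0.0167 CPM, and OCR_11891 and OCR_37081 outside at −0.0078 and −0.016 CPM. Without Ikzf1-cko ex vivo replicate 3, the rule was met by 1083 regions, of which 553 were among the 567.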

How the data were processed

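ATAC-seq was performed on 12 libraries. The authors aligned the reads, removed duplicates, called peaks in each replicate, removed blacklisted ones, kept those found in at least 2 replicates, merged them into one set and counted each library's reads in it. The deposited table holds raw counts of 118680 regions, with an FPKM column beside each that was not used. Bowtie2, MACS2 and bcl2fastq are named in the submitters' processing notes. The labels and chromosomes are those of mm9, although one line of the study's methods prints hg19. A deposited table of the authors' own comparisons (fold changes, F, p-values and FDR) was not used.

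The members, the gene lists and the motifs were chosen with earlier results of these data known. The 69957 regions with 3.6 CPM or more in 3 or more libraries were fitted with edgeR 4.0.16 in R 4.3.3, by its quasi-likelihood test with library totals and 4 groups in one fit. All 567 members passed this filter, which their stimulated levels helped them to do. Genotype differences (Ikzf1-cko minus WT) ex vivo and after stimulation, and the interaction, were called where the Benjamini-Hochberg adjusted p was under 0.05 and the difference was larger than 1 on the log2 scale. The procedure was tested on simulated data. DESeq2 1.42.0, limma 3.58.1 (loess), TMM, other filters and thresholds, a replicate block and leaving out each library were alternatives.

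A region's place came from its overlap with the GENCODE annotation of mm9. Words were searched in the central 300 bases of the 118480 regions that the reference holds (200 do not lie on it). Shared sequence was found with BLAST 2.17.0. Named regions were the 10 with the largest mean log2 ratio, up to 2 for each gene list, the 3 called members with the smallest p for each genotype comparison and direction, and the 5 start-site members with the largest mean ratio. Others are said to be chosen after their values were seen. With totals of 4808916 to 15355521 reads, a region at 10 CPM rests on fewer reads, and is less precise, in the WT libraries. Libraries are biological replicates per the study, and its sorted cells were divided between the stimulated and unstimulated state. Whether same-numbered libraries come from one sort or mouse is not given in the sources used here.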

Additional observations from a re-analysis of the deposited data

Results flagged for a closer look

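In 2 members the response to stimulation differed between the genotypes by the interaction test of edgeR over all tested regions, with a log2 response in Ikzf1-cko minus that in WT of −1.36 at OCR_22535 (adjusted p = 0.0281) and −1.02 at OCR_100087 (adjusted p = 0.05). In both, the 3 WT stimulated libraries lay above all other libraries. Both reached the 10 CPM minimum through WT stimulated Treg alone, which favours a larger WT response, and of the 298 members that reached it after stimulation in both genotypes the median interaction was −0.02. Neither was called in DESeq2.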

How the results depend on the processing

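The number of members followed the thresholds, with 3045 at a minimum of 5 CPM, 216 at 20 CPM and 93 at a fold of 2, and 517 to 1083 when one library was left out. Under TMM scaling 454 regions met the rule, of which 444 were among the 567. The ex vivo calls of lower members were 265 without the fold threshold, 45 under TMM, 52 in DESeq2, 25 when every library had to pass the filter (363 members tested) and 43 to 180 without one library. The calls of higher members ex vivo were 17, 0 with every library passing the filter, and 2 to 3 without one library. After stimulation the lower calls were 335 without the fold threshold, 40 with every library passing the filter and 152 to 228 without one library, and the higher calls were 21, 0 and 1 to 2, and 2 under TMM, loess and DESeq2. The median log2 difference was −0.084 ex vivo and −0.13 after stimulation with every library passing the filter, −0.38 ex vivo when only the libraries compared were fitted (507 members tested), and −0.69 to −0.44 ex vivo, −0.80 to −0.64 after stimulation and −0.15 to −0.02 for the interaction without one library. The 2 lower interaction calls were 0 under loess, DESeq2 and the filter in every library, 1 without a filter, and 0 to 8 without one library. With the replicate number as a block the lower calls were 85 ex vivo, 183 after stimulation and 1 for the interaction. Same-numbered libraries deviated together with correlations of −0.38 to 0.29, and in none of 6 pairs of groups were all over 0.1, so the numbers were not taken to pair the libraries. Relative to all tested regions, the members lay 0.42 to 0.44 lower ex vivo and 0.62 to 0.73 lower after stimulation under library totals, TMM, loess and DESeq2. Of 200 alternatives for the 11 named genotype values, 174 kept their side of the threshold, 26 lost the call and none reversed. The cause of these changes was not tested. Depth limits the low regions most, and the WT libraries are the shallower ones.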
